A study of Mus musculus with 7 samples.

Results

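The list described here holds all 7150 regions at which Pygo2 was called bound over IgG in mouse branchial arches, out of 8229 peaks in the 2 deposited lists of the series; the other 1079 peaks belong to β-catenin. The assay was ChIP-seq, in which chromatin fragments bound by a protein are precipitated with an antibody and sequenced. The tissue was wild-type branchial arches dissected at 10.5 days post coitum, of which about 200 were pooled and dissociated. Chromatin fixed for 40 min in EGS (1.5 mM), which links proteins to each other, with 1% formaldehyde in the last 20 min, was precipitated with an antibody to Pygo2 (library Pygo2 BA2) or with IgG (library IgG BA1). Both libraries are 1 sample each, the labels do not say what BA1 and BA2 stand for, so none of the values given has an error between replicates. Shares carry 95% Wilson intervals where these are printed, which cover counting error only. The Pygo2 library had 15009636 tags, of which 111009 (0.740%) lay in the peaks, a mean of 15.5 tags per peak against a calling threshold of 10. The mean lay near the threshold, and a gene without a peak may still be bound below this limit.

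Pygo2 is a nuclear protein of the Pygopus family. Its PHD finger binds histone H3 methylated at lysine 4, a mark of active gene starts, and also contacts Bcl9 proteins, which in turn hold β-catenin, the effector of canonical Wnt signalling. Pygo2 has no DNA-binding domain known to read a specific sequence, so its place on chromatin depends on other proteins and on histones. The branchial arches are embryonic bars of neural crest and mesoderm covered by epithelium that give rise to parts of the jaw, the neck and the outflow vessels of the heart. The series asks how Bcl9 and Pygo proteins act in heart development. The dissected arches hold several kinds of cell, so a peak cannot be assigned to one of them.

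Peak sequences were available only around known gene starts. The 10 sequences below are examples of such peaks and do not stand for the whole list. They lie wholly within the 300 bases around a known gene start and are written 5′ to 3′ on the gene's strand, from RefSeq's promoters of GRCm38.p6 (mm10). Dusp6 (chr10:99263095-99263261), an ERK phosphatase, is 1 of 3 marker genes. Bahcc1 (chr11:120232752-120232918), a reader of repressive histone methylation, and Ptma (chr1:86526425-86526591), which encodes prothymosin alpha, each collected many peaks. Midn (chr10:80149474-80149640) and Phf23 (chr11:69995563-69995729), a PHD-finger gene, lie in gene-dense neighbourhoods with many peaks. H4c3 (chr13:23698435-23698601) encodes histone H4 and Rpl26 (chr11:68901443-68901609) a protein of the large ribosomal subunit. Plxnd1 (chr6:115995075-115995241), a semaphorin receptor of vessels, Dll3 (chr7:28301835-28302001), a Notch ligand, and Smad3 (chr9:63757984-63758150), a transducer of TGF-β signals, are developmental genes with a peak at the start. Capitals mark matches, on either strand, to CCAAT, to the GC box GGGCGG, to the ETS site CCGGAAG or to the E-box CACGTG; neighbouring matches can join into 1 run of capitals.
Dusp6: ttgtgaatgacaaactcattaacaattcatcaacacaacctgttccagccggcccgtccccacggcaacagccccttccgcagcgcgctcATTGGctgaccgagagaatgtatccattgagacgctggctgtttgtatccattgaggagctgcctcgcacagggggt
Bahcc1: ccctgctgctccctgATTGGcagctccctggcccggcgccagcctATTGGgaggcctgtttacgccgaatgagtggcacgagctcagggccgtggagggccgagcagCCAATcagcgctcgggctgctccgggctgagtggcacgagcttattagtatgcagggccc
Ptma: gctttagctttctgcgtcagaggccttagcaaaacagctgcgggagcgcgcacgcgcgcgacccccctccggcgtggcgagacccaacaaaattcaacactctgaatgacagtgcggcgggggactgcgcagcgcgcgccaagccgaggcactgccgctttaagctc
Midn: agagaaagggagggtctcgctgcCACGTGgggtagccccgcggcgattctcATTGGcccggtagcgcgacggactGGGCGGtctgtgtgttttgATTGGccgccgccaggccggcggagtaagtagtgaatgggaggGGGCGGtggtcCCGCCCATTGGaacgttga
Phf23: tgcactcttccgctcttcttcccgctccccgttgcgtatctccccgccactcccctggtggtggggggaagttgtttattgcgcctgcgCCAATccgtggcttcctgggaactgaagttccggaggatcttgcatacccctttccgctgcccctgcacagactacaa
H4c3: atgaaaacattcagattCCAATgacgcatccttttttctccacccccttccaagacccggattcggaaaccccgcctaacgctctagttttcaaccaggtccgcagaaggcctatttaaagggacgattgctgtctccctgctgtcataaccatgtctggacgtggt
Rpl26: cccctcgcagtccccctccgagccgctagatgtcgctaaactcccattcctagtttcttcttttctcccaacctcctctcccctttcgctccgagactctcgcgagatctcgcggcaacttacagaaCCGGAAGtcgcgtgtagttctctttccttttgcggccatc
Plxnd1: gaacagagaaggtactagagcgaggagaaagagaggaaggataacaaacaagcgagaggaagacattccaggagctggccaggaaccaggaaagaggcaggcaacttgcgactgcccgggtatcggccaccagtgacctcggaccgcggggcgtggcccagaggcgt
Dll3: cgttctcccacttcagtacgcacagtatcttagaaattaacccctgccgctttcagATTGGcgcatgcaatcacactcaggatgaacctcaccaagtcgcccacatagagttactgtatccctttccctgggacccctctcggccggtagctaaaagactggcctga
Smad3: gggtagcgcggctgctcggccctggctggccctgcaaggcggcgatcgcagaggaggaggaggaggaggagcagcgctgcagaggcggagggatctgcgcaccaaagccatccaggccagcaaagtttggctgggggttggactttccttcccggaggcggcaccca
The peak centres lay 40 bp (Rpl26) to 153 bp (Plxnd1) upstream of a start. Bahcc1 carried 3 CCAAT matches, Midn 3 CCAAT matches, 3 GC boxes and an E-box, and Rpl26 1 ETS site. The sequences at Ptma, Plxnd1 and Smad3 held none of the motifs searched, which says only that these letters are not in these bases.

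Of the 7150 peaks, 2940 had their centre within 1 kb of a known start of a protein-coding gene, which is 41.1% (Wilson interval 40.0 to 42.3). A further 557 (7.79%) lay within 1 kb of an end of a gene whose start is not in the table used. Another 1916 (26.8%, Wilson interval 25.8 to 27.8) lay deeper inside genes and 1737 (24.3%) between genes. The intergenic peaks comprised 686 within 10 kb of a gene, 575 at 10 to 50 kb and 476 further out, 28 of these by more than 500 kb. Only 134 peaks (1.87%) were within 1 kb of a 3′ end and of no known start. This count covers genes with a known start, at which peaks at gene ends were chiefly peaks at starts. The 557 peaks at ends of the other genes could not be divided in this way.

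Around starts, the peaks lay slightly upstream. The median distance of the 2940 peaks was -50 bp, with quartiles of -178 and 81 bp, and 1792 of them (61.0%, Wilson interval 59.2 to 62.7) had their centre upstream of the start. The 100 bases just before the start held 643 peaks and the next 100 bases upstream 497, against 480 in the first 100 bases downstream and 219 in the next 100. Within 250 bp of a start there were 2046 peaks, 28.6% of the list.

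**Figure D1:**
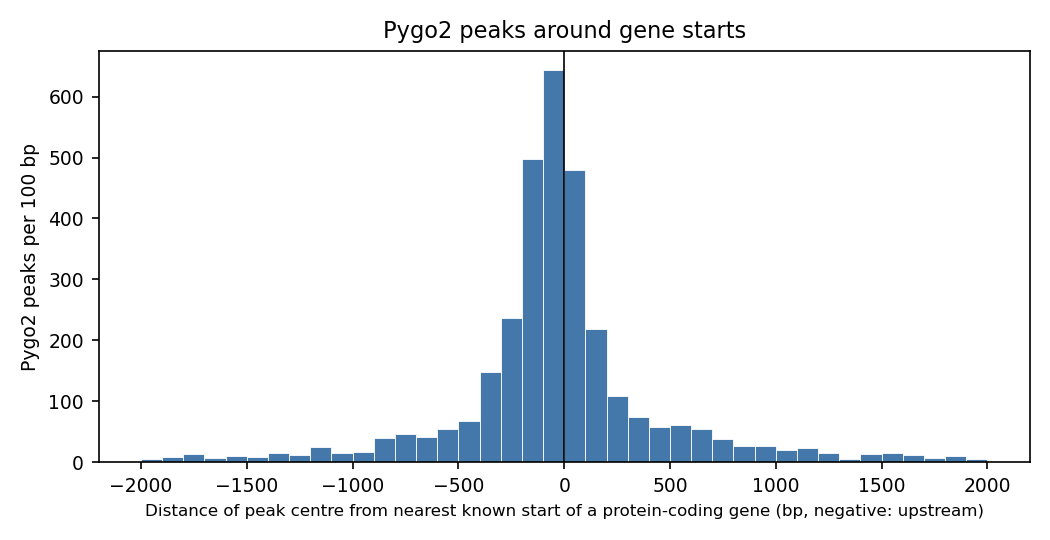
Number of Pygo2 peaks per 100 bp (y axis) by the distance of the peak centre from the nearest known start of a protein-coding gene (x axis, in bp, negative values upstream). The tallest bar holds the 643 peaks in the 100 bases before the start, and the counts fall off faster downstream than upstream close to the start.

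By the starts themselves, 3032 of 17492 protein-coding genes with a known start had a peak within 1 kb, a background of 17.3%. Genes whose start faces that of another gene head to head within 1 kb carried a peak more often. Among these divergent genes 587 of 1483 did so (39.6%, Wilson interval 37.1 to 42.1), and among the others 2445 of 16009 (15.3%, Wilson interval 14.7 to 15.8). A peak between facing starts counts for both genes, so the divergent share is over genes and not over separate peaks.

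Gene starts with a peak were rich in CpG. The 3527 starts with a peak within 1 kb had a median GC content of 62.3% and a median ratio of observed to expected CpG of 0.82, against 56.3% and 0.57 over all 21263 starts. With CpG-rich defined as a GC content of at least 55% and a ratio of at least 0.6, 72.0% of starts with a peak were CpG-rich and 41.0% of all starts. Seen from the other side, 2539 of 8710 CpG-rich starts (29.2%) had a peak, against 988 of 12553 others (7.87%).

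Motifs were counted as matches on both strands in the same 300 bases. The GC box, read by Sp and Klf factors, was in 70.1% of starts with a peak and 46.2% of all starts, and the ETS site in 21.9% and 11.6%. The TATA box (TATAAA) was in 6.32% against 12.6%, the E-box in 11% against 7.84%, and CCAAT in 40.3% against 38.2%. The TCF/LEF site CTTTGAT, the sequence through which β-catenin is brought to Wnt targets, was in 2.32% against 3.22%, and the AP-1 site TGANTCA in 3.01% against 6.99%. The cAMP response element TGACGTCA was in 3.20% against 2.23%. Base composition moves with these shares. Among CpG-rich starts alone, the GC box was in 79.0% with a peak and 80.2% without one, and the TCF/LEF site in 1.34% and 1.57%. The shares of the ETS site (23.7% and 18%), CCAAT (38.0% and 33.8%) and the E-box (12.5% and 11.2%) still stood higher with a peak inside this class. A further count took the 890 peaks that lie wholly inside the promoter sequences, as the 10 printed above do. The ETS site was in 18.1% of them, the GC box in 49.2% and CCAAT in 29.1%. The middle bases of all promoter sequences, over the same width, had 6.43%, 36.8% and 28.3%. This comparison was not limited to CpG-rich starts, so base composition was not matched in it. A match is a description of the letters and was not tested as a binding site.

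Each peak was next given to its nearest protein-coding gene, the gene that holds the peak centre or else the gene with the nearer end. By this rule 5188 of 21887 protein-coding genes, or 23.7%, were nearest to at least 1 peak, while 10187 genes (46.5%) had a peak within 50 kb. Of the 5188 genes, 3921 (75.6%) had exactly 1 peak, 888 had 2, 307 had 3 or 4, and 72 genes (0.329% of all) had 5 or more. These 72 genes took 453 peaks (6.34%), 54.5% of which lay inside the gene. Genes with more peaks were longer and had more sequence nearest to them. The median length was 14.9 kb for genes with no peak, 24.3 kb with 1 peak and 153 kb with 5 or more, and the median stretch of sequence nearest to the gene was 41.0, 51.0 and 366 kb. From the shortest to the longest 20% of genes, the share nearest to a peak went from 11.5% to 36.1%. The part of gene size in the counts below was not tested beyond the densities given beside some of them.

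Gse1, a coiled-coil protein, was the nearest gene of 15 peaks, more than any other gene (chr8:120228501-120581383). All 15 lay inside its 353 kb, spread over 289 kb, at a density of 3.96 peaks per 100 kb of nearest sequence, where the whole genome had 0.269. They fell in both parts of the gene, 8 from 47.8 to 128 kb past its lower end and 7 from 126 to 16.2 kb before its upper end, and only 2 were within 1 kb of a known start. Bahcc1 (chr11:120232870-120292297) had 11 peaks, of which 3 were inside the gene and 8 flanked it on both sides, up to 25.9 kb away. Its start peak printed above stood at position 90 of the list, and another peak 1.27 kb before the gene at position 11. Msi2, an RNA-binding protein of the Musashi family (chr11:88339382-88718306), had 11 peaks, 10 of them inside, and Dnm3, a dynamin GTPase, 10 peaks, all inside its 496 kb.

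Maml3, a Mastermind coactivator of Notch signalling (chr3:51687320-52105319), had 9 peaks, all inside the gene, with a pair 2.29 and 2.75 kb inside its upper end. Mn1, a transcriptional coregulator required for palate formation, had 9 peaks, 8 of them outside the gene and the farthest 313 kb away. Cstad, a gene of 13.9 kb (chr2:30595044-30608945), had 9 peaks, 1 inside and 8 outside; 4 of these lay together 49.0 to 58.5 kb past its upper end. Cdh11, the cadherin of mesenchymal cells, had 8 peaks, but 2419 kb of sequence had Cdh11 as its nearest gene, so its density was 0.331 per 100 kb. Ptma (chr1:86526557-86530712) had the highest density among the 15 genes of the plot of peaks inside and outside genes, with 8 peaks and 13.6 per 100 kb. Its peaks formed 2 groups, 4 between 39.0 and 22.1 kb before the gene and 4 from 1.10 kb before to 1.50 kb past it. The other genes among the 15 were Msrb3, Prex1, Zfp516 and Zmiz1 with 8 peaks each and Lrmda and Prdm16, a zinc finger regulator of craniofacial development, with 7 each; these last 2 are among 9 genes tied at 7 peaks. Some of the 15 had peaks spread through a very long gene (Gse1, Msi2, Dnm3, Maml3, Lrmda). Others had them around a gene that itself held few (Bahcc1, Cstad, Mn1, Cdh11, Ptma, Zmiz1). The rest were mixed, with 5 inside and 3 outside at Msrb3, 3 and 5 at Prex1, 4 and 4 at Zfp516 and 5 and 2 at Prdm16.

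**Figure D2:**
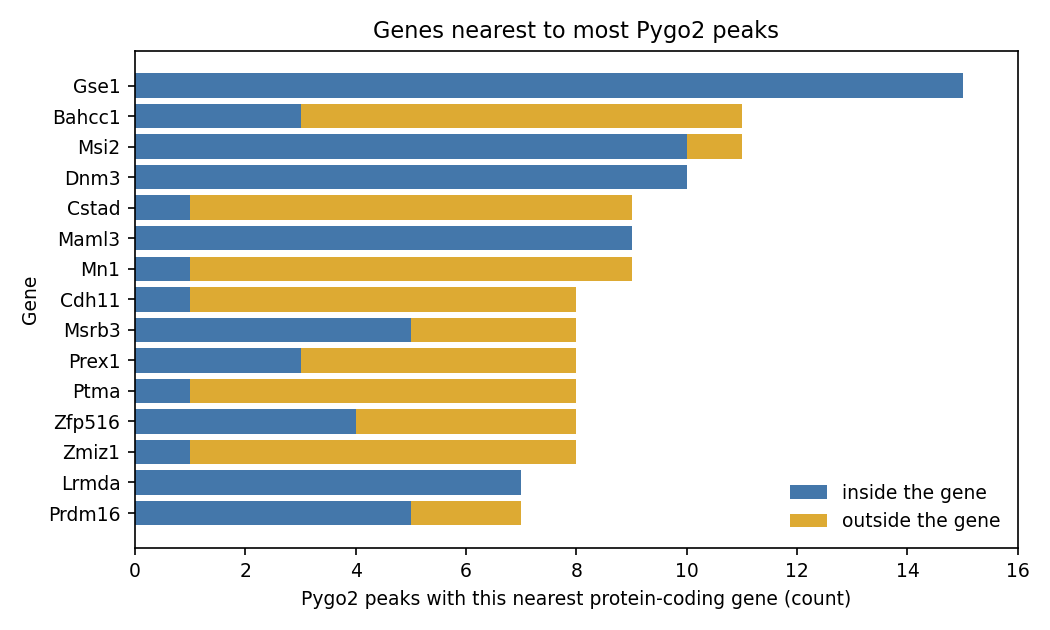
Number of Pygo2 peaks (x axis) with each of the 15 named genes as their nearest protein-coding gene (y axis), divided into peaks inside the gene and peaks outside it. All 15 peaks of Gse1 are inside, whereas 8 of 11 at Bahcc1 and 7 of 8 at Ptma are outside.

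**Figure D3:**
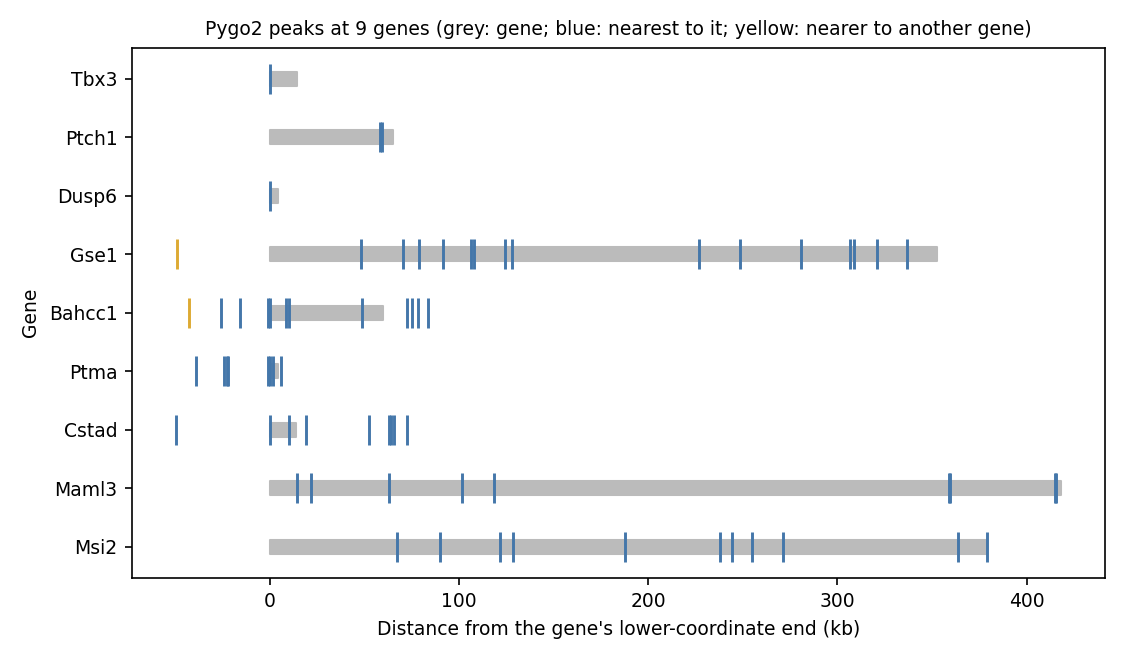
Pygo2 peaks (ticks) at 9 genes, with the distance of the peak centre from the gene's lower-coordinate end in kb on the x axis and the gene as a grey bar. Blue ticks have the gene as their nearest and yellow ticks, within 50 kb of it, are nearer to another gene; the 3 marker genes on top have 1 to 2 peaks against 8 to 15 in the others.

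The 3 marker genes each had a peak. Tbx3, a T-box factor of limb and heart, had 1 peak (chr5:119670505-119670671) whose centre lay 54 bp inside the lower end of the gene, at list position 4331. Ptch1, the Hedgehog receptor and a target of the same pathway, had 2 peaks (chr13:63566418-63566584 and chr13:63567496-63567662), at -766 and -1844 bp from the nearest known start. That start and both peaks lay inside the gene, the peaks 6.96 and 5.88 kb from its upper end. Dusp6 had the 1 peak printed above, 53 bp upstream of its start.

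Gene families were compared with the 23.7% of all protein-coding genes that were nearest to a peak and with the 17.3% of known starts. Of 63 families, 46 had a share nearest to a peak above the 23.7% and 17 below it, including 2 with no gene. Family members that lie side by side can share a peak, and with 1 library no family was tested. Several families of the basic cell machinery often had a peak at their starts. Of the replication-dependent histone genes, which are expressed in S phase, 43 of 64 (67.2%) were nearest to a peak and 47 of 59 known starts (79.7%) had one within 1 kb. With 64 peaks in little sequence they had a density of 126 peaks per Mb, against 2.69 over the genome; H4c8 took 6, H2ac12 took 4 and H2bc4 took 3. Among cytosolic ribosomal protein genes 47 of 85 (55.3%) were nearest to a peak and 53.8% of known starts had one, with 4 peaks nearest to Rplp1 and 2 to Rpl38. The known starts of SR, hnRNP and snRNP splicing proteins (47.5%; Hnrnpl, Srsf1), RNA polymerase subunits (45.5%; Polr2a), translation initiation factors (43.2%; Eif2a), respiratory complex I (42.4%; Ndufb4) and mitochondrial ribosomal proteins (40.6%; Mrpl23) also had a peak more often than the 17.3%.

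Some families of developmental regulators had many members nearest to a peak, but the share of their known starts with a peak was near or below 17.3%. That is the share over all known starts, and the family shares rest on few genes. Of the Dlx, Msx, Alx, Prrx and Pitx homeobox genes, which pattern the arches, 12 of 17 (70.6%, Wilson interval 46.9 to 86.7) were nearest to a peak, but 1 of 8 known starts (12.5%) had one. Dlx3 had 4 of these peaks, Prrx2 had 3 and Alx4 had 2. A gene without a known start cannot enter the start share. The closest peak of Alx4 lay 335 bp outside the gene, at -179149 bp from the nearest known start. That of Dlx3 lay inside the gene, at -43678 bp from the nearest known start. Sox factors had 10 of 19 genes (52.6%) nearest to a peak and 2 of 13 known starts (15.4%) with one. Sox9, a cartilage regulator, had 3 peaks, the closest 39.3 kb from the gene. Forkhead factors had 19 of 44 genes (43.2%) and 3 of 28 known starts (10.7%), led by Foxp4 and Foxl1 with 6 peaks each. Per Mb of nearest sequence, Sox factors had 2.65 peaks, forkhead factors 4.00 and Dlx to Pitx genes 7.43. The whole genome had 2.69. The Meis, Pbx and Pknox genes, whose TALE homeodomain proteins partner Hox proteins, had 8 of 9 genes (88.9%) nearest to a peak, with 4 peaks each at Pbx3 and Pknox1, and the Tead and TCF/LEF factors 7 of 8 (87.5%), led by Tcf7l1 with 4. In these last 2 families peaks were also at starts, 2 of 5 and 2 of 6 known ones. Counted by peaks, 49.4% of the 5743 peaks whose nearest gene has a known start lay within 1 kb of a start of that gene. This share was 87.5% for histones, 85.7% for initiation factors and 75% for cytosolic ribosomal proteins, and 13.3% for Sox, 11.1% for forkhead and 11.1% for Dlx to Pitx genes. The Dlx to Pitx share rests on 9 of their 18 peaks. Known starts cover fewer of these regulators, 28 of 44 forkhead and 8 of 17 Dlx to Pitx genes, and the rest do not enter the start shares. Among the first 3575 peaks the shares of genes nearest to a peak were 23.5% for Dlx to Pitx, 22.7% for forkhead and 15.8% for Sox genes, against 13.2% of all genes. Other regulators were near the 23.7% of all genes, among them the T-box (25%), Lhx and Irx (28.6%) and Pax genes (33.3%).

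Several families of chromatin regulators stood high on the share of genes nearest to a peak. The lysine methyltransferases of the Kmt and Setd families had 10 of 16 genes (62.5%), among them Kmt2d, whose product methylates the histone residue that Pygo proteins read, with 2 peaks. The Chd helicases had 6 of 10 (60.0%; Chd2 with 4 peaks, Chd3 with 3) and the Smarc and Arid genes of SWI/SNF remodellers 12 of 23 (52.2%; Arid1a, Arid1b and Arid3a with 3 each). The PHD finger Phf genes (9 of 22, 40.9%) and the lysine demethylases (6 of 18, 33.3%) were lower, and among the first 3575 peaks the Chd helicases had 20.0%, against 13.2% of all genes. Guidance receptors and ligands were also high on this share, with 14 of 22 Eph and ephrin genes (63.6%, with 5 peaks each at Epha4 and Ephb2). Semaphorins and plexins had 16 of 29 (55.2%, with 2 each at Plxnd1 and Sema3c). Per Mb of nearest sequence, however, the Eph and ephrin genes had 1.76 peaks, below the 2.69 over the genome. Semaphorins and plexins had 2.87, near it.

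At the low end were large families with restricted expression. Of 1110 olfactory receptor genes 8 (0.721%) were nearest to a peak and no known start had one. Vomeronasal receptors had 1 of 355, keratins 1 of 49, keratin-associated proteins 0 of 56 (Wilson upper bound 6.42%) and defensins 0 of 71 (Wilson upper bound 5.13%). Cytochromes P450 had 7 of 99 (7.07%) and serpins 4 of 63 (6.35%). Among developmental regulators, Hox genes had 4 of 39 (10.3%; Hoxc4, Hoxa3, Hoxc5 and Hoxa2) and Gata and Nkx genes 2 of 20 (10.0%; Gata2 and Nkx1-1), both below the 23.7%. Hox genes lie close together, so little sequence has each of them as its nearest gene. Within 50 kb, 13 of 39 (33.3%) had a peak, against 46.5% of all genes. Per Mb of nearest sequence, Hox genes had 5.92 peaks, from 5 peaks, above the 2.69 over the genome. Gata and Nkx genes had 1.22, below it.

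**Figure D4:**
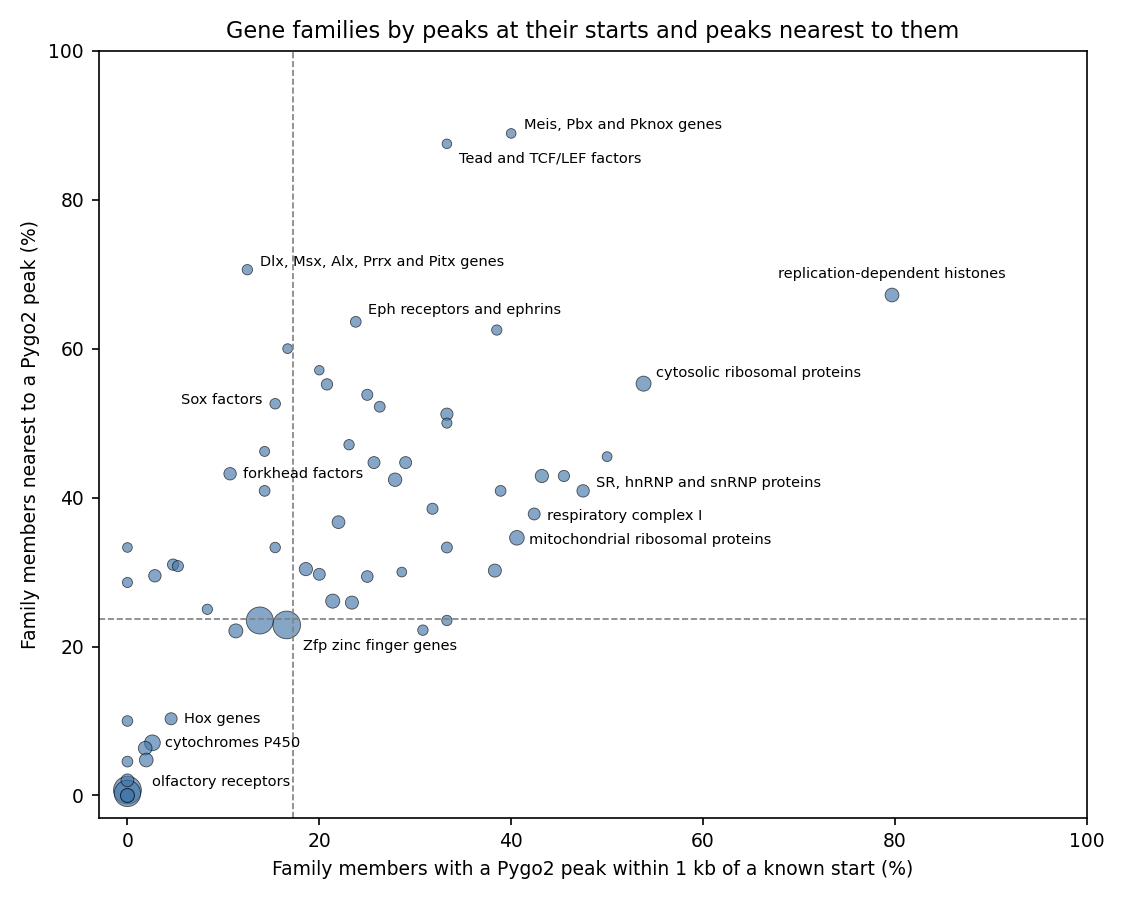
Each circle is a gene family, sized by its number of genes, with the share of known starts within 1 kb of a Pygo2 peak on the x axis and the share of genes nearest to a peak on the y axis, both in percent; dashed lines mark all protein-coding genes (17.3% and 23.7%). Clustered protocadherins have no known start and are left out; histones and ribosomal proteins lie far to the right, whereas Dlx to Pitx genes, Sox and forkhead factors lie high on the left.

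Of 15 pathway and marker lists, 11 had a share above the 23.7%. The Hedgehog list had 11 of 18 genes (61.1%) nearest to a peak, led by Gli2, the transcription factor of the pathway, with 6 peaks, and the coreceptors Gas1 with 4 and Boc with 2. The Notch list had 22 of 36 (61.1%), with the feedback gene Nrarp at 3 peaks and the ligand Jag1 at 2 after Maml3. Heart development genes had 34 of 60 (56.7%), with 4 peaks each at Ets1, Pbx3 and Zfpm1, a Gata cofactor. Retinoic acid genes had 11 of 20 (55%; the receptor Rara with 3 peaks), arch patterning genes 31 of 59 (52.5%), and neural crest genes 16 of 32 (Snai1 with 3 peaks). Within 50 kb, however, the arch patterning list (49.2%) and the neural crest list (46.9%) were near the 46.5% of all genes. Per Mb of nearest sequence these lists had 3.27 and 2.59 peaks, against 2.69 over the genome. BMP and TGF-β genes had 21 of 44 (47.7%), with 7 peaks at the inhibitory Smad6, and FGF genes 19 of 43 (44.2%), with 4 each at Fgfr2 and Il17rd.

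The Wnt list had 35 of 81 genes (43.2%, Wilson interval 33.0 to 54.1), below the Hedgehog list (Wilson interval 38.6 to 79.7) and the Notch list (44.9 to 75.2) in share but with overlapping intervals. Among the first 3575 peaks the order of Wnt and Notch turned around, at 29.6% and 16.7%, with all genes at 13.2%. Tle3, a Groucho corepressor of TCF proteins, led it with 7 peaks, followed by Znrf3, a ligase that removes Frizzled receptors, with 5, and Bcl9l, the partner of Pygo proteins, and Tcf7l1 with 4 each. Ligands and receptors were lower. Of 29 Wnt and Frizzled genes 9 (31.0%) were nearest to a peak, but within 50 kb the share was 41.4%, below the 46.5% of all genes, and 4.76% of known starts had a peak.

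Marker lists of other cells that the dissected tissue could hold had lower shares by nearest gene than the pathway lists above. Endothelial genes had 5 of 20 (25%), blood genes 4 of 20 (20.0%), arch epithelium 4 of 25 (16%) and arch muscle 1 of 16 (6.25%). Neuronal genes had 7 of 22 (31.8%), but 36.4% within 50 kb, below the 46.5% of all genes. Hepatocyte genes, from an organ outside the dissection, had 1 of 19 (5.26%; Hnf4a). Within 50 kb, however, the endothelial (50%) and blood lists (45%) were near the 46.5%, as were arch patterning (49.2%) and neural crest (46.9%). Per Mb of nearest sequence, endothelial (3.14) and blood genes (2.92) stood above the 2.69 over the genome. Arch epithelium (1.22), arch muscle (0.503), neuronal (1.65) and hepatocyte genes (0.468) were below it. No known start had a peak within 1 kb in the epithelial (16 starts), endothelial (14), neuronal (15), muscle (12) or hepatocyte (16) lists. The blood list had 1 of 16 (6.25%). Over all known starts the share was 17.3%. In the pathway lists it went from 11.4% (arch patterning, 4 of 35) to 42.9% (Hedgehog, 6 of 14). These lists are short, and the difference was not tested.

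Peaks also gathered in neighbourhoods dense in genes. The median gap between neighbouring peaks was 84.7 kb, and 1880 peaks (26.3%) had another within 10 kb. The 1 Mb window with most peaks (chr11:69037092-70037091) held 50 peaks and 64 protein-coding genes, among them the histone demethylase Kdm6b with 4 peaks and Chd3, Dlg4 and the clock gene Per1 with 3 each; Phf23 also lies there. The next windows were on chromosome 10 with 47 peaks and 61 genes (Arid3a, Cirbp and Midn with 3 peaks each), chromosome 7 with 46 peaks and 74 genes (Ppfia3 and Snrnp70 with 3 each), and chromosome 13 with 40 peaks and 43 genes (H4c8 with 6, Abt1 with 5). Windows on chromosome 19 (Sf1, Frmd8) and chromosome 3 (Lmna) held 37 and 33 peaks. The window around Cstad on chromosome 2 (chr2:29935349-30935348) was the only one of the 10 richest with more peaks than genes, at 33 and 27. Of its peaks 15 were intergenic, as were 14 of 32 in the window around Bahcc1, compared with 2 to 11 in each of the other 8 windows. In the Cstad window the uncharacterised gene 1700001O22Rik took 5 and the homeobox gene Prrx2 took 3.

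The runs with most peaks were at histone genes. On chromosome 13, 18 peaks lay within 68.9 kb (chr13:23517215-23586068) with no gap above 10 kb, at H4c8, H1f3, H2bc6 and their neighbours, and 11 peaks lay within 27.4 kb around H2ac12. The next run by number of peaks had 10 in 33.4 kb on chromosome 10, at Atp5d, Midn, Cirbp and Fam174c. The peak-free stretch with most genes (chr2:85047913-91054077, 6.01 Mb) held 241 protein-coding genes, of which 222 were olfactory or vomeronasal receptor genes.

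By chromosome, chromosome 11 had 731 peaks (6.15 per Mb), and 31.6% of its genes were nearest to a peak, the highest share of any chromosome. The X chromosome had 64 peaks (0.382 per Mb), and 5.80% of its 966 genes were nearest to one, against 24.8% of autosomal genes. At known starts the shares were 4.90% on the X and 18.2% on the autosomes, so the difference was present in peaks at starts too. The 3 longest peak-free stretches, of 16.3, 16.1 and 15.4 Mb, were all on the X. Flna, which encodes an actin cross-linker, had 3 of the X peaks, and the corepressor Bcor and the glypican Gpc3 had 2 each. The Y chromosome had 1 peak. The sexes of the pooled embryos are not given in the labels.

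**Figure D5:**
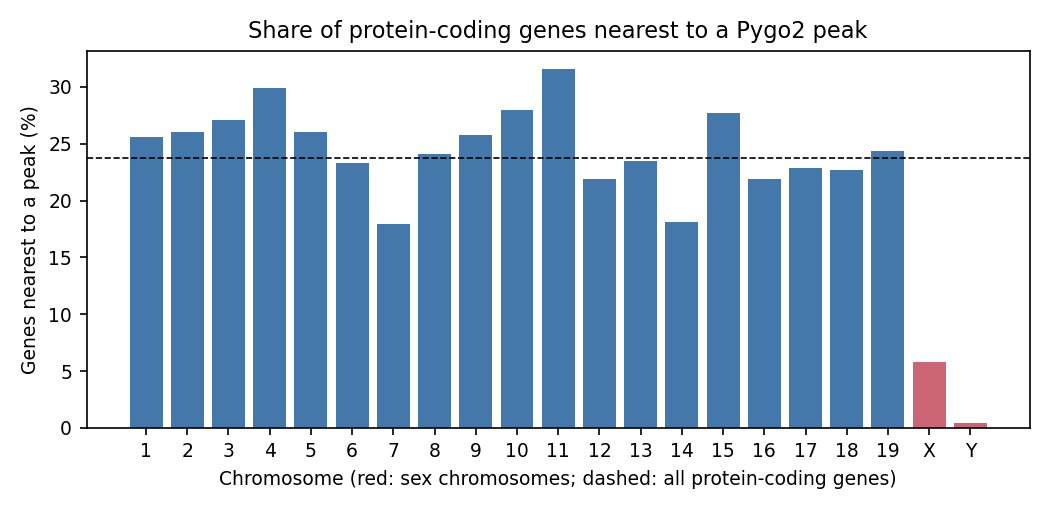
Share of protein-coding genes nearest to a Pygo2 peak (y axis, in percent) on each chromosome (x axis), with a dashed line at the 23.7% of all protein-coding genes. Chromosome 11 is highest at 31.6%, and the X (5.80%) and Y chromosomes lie far below every autosome.

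Peaks also lay at genes of small RNAs. Over genes of every kind in the table, 5585 of 49943 (11.2%) had a peak within 250 bp. The share was 20.7% for protein-coding genes, 7.09% for long non-coding RNA genes and 0.181% for pseudogenes. The part of gene length in these shares was not tested. Transfer RNA genes had 67 of 408 (16.4%), with 61 peaks, whereas small nuclear RNA genes had 21 of 1004 (2.09%), microRNA genes 16 of 1228 (1.30%) and small nucleolar RNA genes 5 of 1340 (0.373%). The 25 peaks at small nuclear RNA genes stood early in the list, 20 of them among its first 715 peaks, as did 22 of the 61 at transfer RNA genes. Rnu1a1, a gene of the U1 splicing RNA, was at position 22, Rnu7 at 28 and Rnu11 at 35. The list consists of 80 runs that each rise by chromosome and coordinate, so positions within a run follow the genome; the headers do not state what orders the runs.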

How the data were processed

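The members, families and gene lists were chosen with earlier results of these data known. The authors called peaks with HOMER findPeaks, factor style, per the file headers, on 1 library against IgG BA1 (the deposited name mentions BA2; the header was followed). Thresholds were a false discovery rate of 0.001, a 2-fold excess of tags over IgG and a Poisson p of 1e-04 over IgG. Peaks were also compared with the local 10 kb. Bowtie, Bowtie2, HOMER and mm10 are named in the submitters' processing notes. The deposited table gives coordinates, printed here 1-based, of peaks 167 bp wide, and a score of 1 for every peak, so peak height was not used. Of 21859 putative peaks, IgG removed 12515 and the local comparison 2194, per the file headers.

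Genes and starts came from RefSeq tables of GRCm38.p6: 21887 protein-coding genes, 17492 (79.9%) with a known start, none on chromosome 18. Families were matched by symbol stem, and 515 of 516 list entries matched. The share of a gene's nearest sequence was counted on a 1 kb grid. Named genes were the 15 with most peaks, up to 4 per window, family or list by number of peaks, and the 3 markers; a few genes that this rule names are not reported here. The 10 printed sequences, Phf23 and other examples outside this order were chosen after their values were seen. Motifs for NRF1 and YY1 were searched too and are not reported. With 1 library no test was made. Assignment code was checked on simulated peaks. Python 3.11.15, NumPy 2.4.6, pandas 2.3.3, SciPy 1.17.1 and Matplotlib 3.10.9 were used. Other windows, other gene assignments and the first 3575 peaks were tried as alternatives.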

Additional observations from a re-analysis of the deposited data

How the results depend on the processing

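The 41.1% of peaks at starts became 35.5% within 500 bp, 44.6% within 2 kb and 48.5% within 5 kb, and was 55.7% among the first 3575 peaks. The share of genes nearest to a peak (23.7%) was 26.8% by nearest start, 22.8% without peaks over 50 kb away, 46.5% for every gene within 50 kb and 13.2% with the first 3575 peaks. With these, 17 genes instead of 72 had 5 or more peaks; 106 did by nearest start and 49 without peaks over 50 kb away. The richest window, on chromosome 11 at 1 Mb, was on chromosome 10 at 2 Mb (80 peaks) and on chromosome 13 at 500 kb (40 peaks). The density ratio to all chromosomes went from 2.29 to 2.64 for chromosome 11 and from 0.142 to 0.102 for the X with the first 3575 peaks. Ending at a whole run instead (3445 peaks, chosen after seeing the data) gave 56.0%, 12.7%, 15 genes, 2.74 and 0.106. CpG-rich starts were 69.9% with peaks within 2 kb (72.0% at 1 kb), and the ETS site 26.1% within 250 bp (21.9%).

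Some families changed sides of the share of all genes. By nearest start (all genes 26.8%), ATP synthase (33.3%), cytochrome c oxidase (30.8%) and solute carriers (29.7%) rose above it and E2 enzymes (26.7%), T-box factors (25%) and collagens (25.7%) came below. Within 50 kb (46.5%), ATP synthase (70.6%), cytochrome c oxidase (77.8%), Zfp genes (47.4%), solute carriers (52.0%) and Trim genes (48.5%) were above, and sine oculis homeobox and Eya genes (40.0%), Pax (44.4%), Lhx and Irx (28.6%), Id, Hes and Hey (46.2%), Wnt and Frizzled (41.4%), Bmp and Gdf genes (45.5%) and the neuronal list (36.4%) below. Among the first 3575 peaks (13.2%), ATP synthase (17.6%) and cytochrome c oxidase (16.7%) were above and T-box (6.25%), Lhx and Irx (7.14%), Fgf (7.69%), collagen (11.4%) and neuronal genes (9.09%) below. The causes of these changes were not tested. No paired analysis was possible because the list comes from 1 library and no test. Sequencing depth limits the list, since the threshold was 10 tags.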
